A study of Danio rerio with 8 samples.

Results

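Hox genes encode homeodomain transcription factors that lie in clusters, and along each cluster the gene order parallels the order of expression along the body axis. Genes with low paralog numbers are used in the hindbrain and pharyngeal arches, those with high numbers in the posterior trunk, the tail and the fins, and the foremost head skeleton forms largely without Hox expression. In zebrafish the genes fall into the clusters hoxaa, hoxab, hoxba, hoxbb, hoxca, hoxcb and hoxda, so that a letter and an a or b copy give the cluster and the number gives the paralog group. The members described here were all rows of the deposited gene table whose symbol has this form, 48 of 32520 rows. By paralog number, 17 were anterior (1 to 5), 8 middle (6 to 8) and 23 posterior (9 to 13).

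The comparison was between the strongly GFP-positive population P2 (3 libraries, replicates 1, 2 and 4) and the weakly GFP-positive population P1 (5 libraries, replicates 1, 2, 3, 5 and 6). Every library came from AB-strain larvae at 4 dpf, pooled 100 to 150 at a time and given no treatment in the labels, which carried Tg(sp7:sp7-GFP) (ulg071 Tg) and were bred from a heterozygous carrier and a wild-type fish. The reporter sits in the endogenous *sp7* gene, whose transcription factor marks osteoblasts, so a gate selects cells by their *sp7* activity and not by their place in the body. The labels do not say whether replicates came from separate clutches, so p-values measure only the spread between these libraries.

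The depth was 7510312 to 10811492 recovered gene reads in P2 libraries and 8528850 to 13034333 in P1 libraries. Of 9 osteoblast markers 8 rose in P2, where 7.57% of all genes tested did. Among the 8 was *sp7*, whose rise follows from the gates. It stood at 1227, 771 and 1028 normalized reads in P2, against 99.1, 30.0, 57.3, 38.1 and 63.7 in P1. P2 replicate 2 stood apart from the other P2 libraries on the first principal component over the most variable of the tested genes (−21.5, against −68.9 and −67.9 for P2 replicates 1 and 4, with P1 between 23.1 and 41.9). Called Hox genes with most of their P2 reads in that library, and some other genes, are given with and without it. Bulk libraries cannot tell fewer cells of a type from less RNA per cell. The cDNA was amplified by PCR without molecular identifiers, so intervals and floors cover counting error only.

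To see how far each population carried a positional Hox signature, reads on Hox genes were first summed by class. Reads on posterior Hox genes were scarce in P2 and plentiful in P1, while reads on anterior Hox genes overlapped between the populations. Posterior genes took 4.97, 11.2 and 7.32 RPM (reads in 1000000 recovered gene reads) in P2 replicates 1, 2 and 4, against 166, 255, 334, 309 and 155 in P1 replicates 1, 2, 3, 5 and 6. The means were 7.83 ± 3.14 in P2 (SD, n = 3) and 244 ± 81.3 in P1 (SD, n = 5), and the highest P2 library was below the lowest P1 library.

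Anterior genes took 206 ± 31.4 RPM in P2 (SD, n = 3) and 193 ± 49.7 in P1 (SD, n = 5), with overlapping libraries. Middle genes took 39.0 ± 8.93 in P2 and 94.3 ± 25.2 in P1, and the populations did not overlap (33.3 to 49.3 in P2, 71.1 to 134 in P1). The P2 mean was thus 1.07 times the P1 mean for the anterior class, 0.413 times for the middle class and 0.0321 times for the posterior class. Without P2 replicate 2 these ratios were 1.16, 0.438 and 0.0252. Mitochondrial genes took 13.2% to 23.0% of reads in P2 libraries and 21.2% to 35.5% in P1 libraries. Over reads without mitochondrial genes the ratios were 0.956, 0.366 and 0.0289, so the direction of the anterior ratio depended on the scaling.

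The make-up of the Hox reads differed in the same way. Anterior genes held 81.5% ± 2.95 of all Hox reads in P2 (SD, n = 3) and 36.4% ± 3.12 in P1 (SD, n = 5), and posterior genes held 3.21% ± 1.69 in P2 and 45.4% ± 4.84 in P1. With at least 3 reads as the limit of detection, 21, 30 and 30 of the 48 genes were detected in P2, against 46, 48, 48, 48 and 46 in P1. In P2 those were 2, 10 and 8 of the 23 posterior genes, against 22 or 23 in every P1 library.

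**Figure D1:**
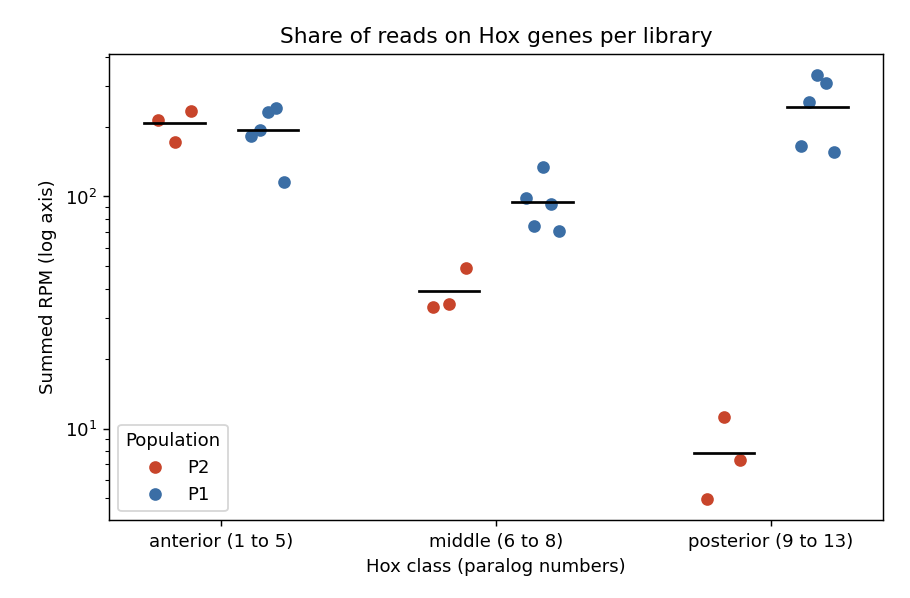
Summed RPM, reads in 1000000 recovered gene reads (log axis), on anterior, middle and posterior Hox genes, 1 point per library, P2 (3 libraries) left of P1 (5 libraries), black lines at the means. The populations overlap for the anterior class (means 206 in P2 and 193 in P1) and are far apart for the posterior class (7.83 in P2 and 244 in P1).

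Each gene was then tested with limma on log2(normalized read count + 1), and a call required an adjusted p under 0.05 (Benjamini-Hochberg over all 18475 genes tested). A normalized read count, here shortened to normalized reads, is a count divided by the size factor of its library, and fold changes on this scale understate the change of genes with few reads. Of 48 Hox genes 47 were tested, and 27 of them (57.4%) were lower in P2, 1 was higher and 19 were not called. Of all genes tested, 7.05% were lower in P2 and 7.57% were higher. *hoxb1a*, a hindbrain gene, was not tested, since no P2 library held a read of it and it reached at most 1.34 normalized reads in P1.

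The filter kept a gene with at least 10 reads in 3 libraries, and 22 of the 47 members reached this through P1 libraries only, so that they could pass only by being higher there. Among all 1131 genes that passed in this way 35.8% were called lower, and among the 22 members 20 (90.9%) were. Of the 25 other tested members, which had 10 reads in some P2 library, 7 were lower and 1 was higher. Some of these also needed P1 libraries to pass, among them *hoxb7a*, *hoxc9a*, *hoxd9a*, *hoxd11a* and *hoxc13b*. No posterior gene had 10 reads in every P2 library, so each of them was tested with the help of P1 reads. The share called among all genes that needed P1 in part was not computed. By class, the call was lower for 22 of 23 posterior genes, 3 of 8 middle genes and 2 of 16 tested anterior genes. The genes that passed through P1 only were 18 of the 23 posterior, 3 of the 8 middle and 1 of the 16 anterior genes, so the classes stand against different backgrounds (35.8% for such genes, 7.05% for all), and the difference between classes was not tested.

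The median log2 fold change was −3.31 over the posterior genes (−3.39 with genes at 0 in P2 set to their bound), −2.23 over the middle genes and −0.06 over the anterior genes, beside 0.00 over all genes tested and −1.72 over those that passed through P1 only. By paralog number the medians were −1.50, −0.24, −1.28, 0.53 and 0.26 for groups 1 to 5, then −1.99, −3.13 and −2.36 for groups 6 to 8, and −3.91, −3.42, −2.87, −3.18 and −4.43 for groups 9 to 13. The medians thus lay above 0 for groups 4 and 5 and below −1.9 from group 6 onward, although they did not fall evenly with the number. Groups 6 to 8 were small and mixed. Group 7 held 1 gene, and 1 of 4 genes of group 6 and 1 of 3 of group 8 were called lower. In these groups *hoxb6a* stood at −0.28 and *hoxb8b* at 0.51. Among the posterior groups, where P2 was near 0, the medians also depended on the P1 level, which bounds a fold change on this scale.

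**Figure D2:**
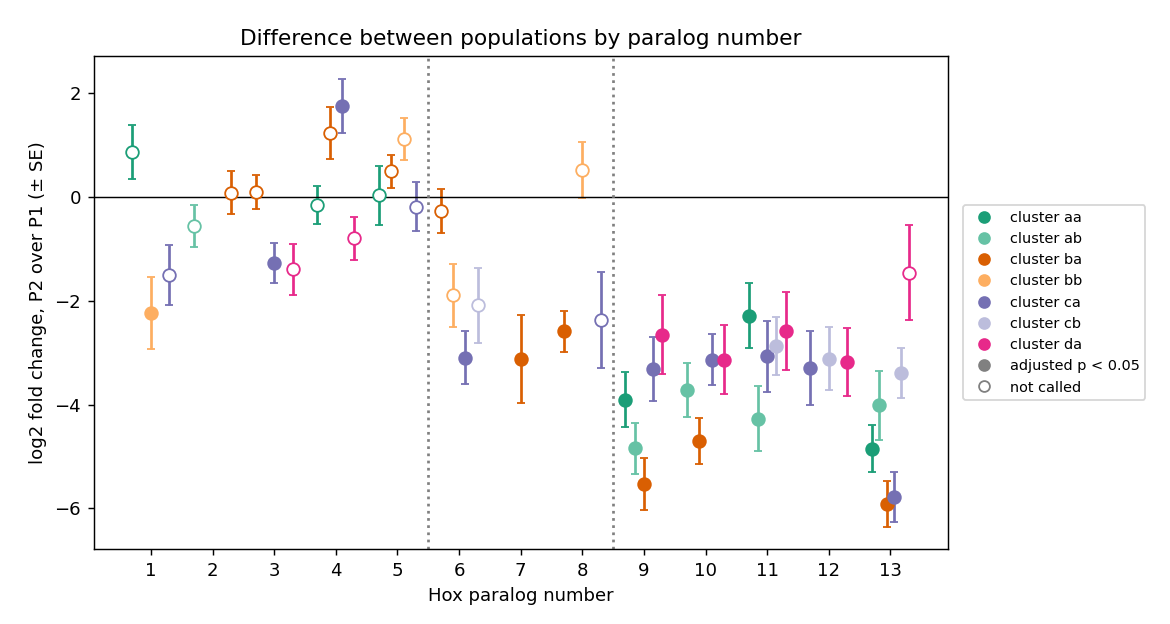
Log2 fold change, P2 over P1, of each tested Hox gene by paralog number, with SE bars from limma (3 P2 and 5 P1 libraries), coloured by cluster, filled where adjusted p was under 0.05 and open where it was not. All 23 genes of groups 9 to 13 lie below 0, and all but *hoxd13a* are filled.

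Replicate order in the gene values that follow is 1, 2 and 4 for P2 and 1, 2, 3, 5 and 6 for P1. Among the posterior genes the group 13 paralogs, which act at the tail end of the axis and in the fins, held both the largest falls and the exception. *hoxb13a* (ENSDARG00000056015), at the posterior end of hoxba, had 0.339, 0 and 0 normalized reads in P2, against 91.9, 48.7, 111, 53.4 and 44.9 in P1. Its 1 read in P2 made the P1 to P2 ratio 702 with a counting interval of 126 to 27759, and the log2 fold change was −5.91 ± 0.44 (SE, limma adjusted p = 6.64e-06). *hoxc13a* (ENSDARG00000070353) had 0, 0 and 0 normalized reads in P2, against 64.7, 31.9, 101, 69.5 and 30.2 in P1. With 3 reads per P2 library as the floor, P2 was at least 65.6-fold lower than P1, with a fitted log2 fold change of −5.77 ± 0.48 (SE, limma adjusted p = 1.46e-05). Both genes were thus present in all 5 P1 libraries and absent or at a single read in P2.

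*hoxa13a* and *hoxa13b*, which in zebrafish take part in fin ray formation, followed. *hoxa13a* (ENSDARG00000100312) had 0, 0 and 0 normalized reads in P2, against 15.7, 41.5, 33, 31.7 and 24.1 in P1, at least 32.2-fold lower in P2 by the same floor. *hoxa13b* (ENSDARG00000036254) had 2.04, 0 and 2.63 normalized reads in P2, against 17.8, 121, 40.7, 38.7 and 15 in P1, with a log2 fold change of −4.02 ± 0.67 (SE, limma adjusted p = 0.00251). In P1, replicate 2 was far above the other libraries for *hoxa13b* but close to them for *hoxa13a*.

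*hoxc13b* (ENSDARG00000113877) kept the most even level among P1 libraries of the posterior genes, with a coefficient of variation of 14.0%, and had 10.2, 3.58 and 1.17 normalized reads in P2, against 46.8, 42.1, 54.9, 59.1 and 46.2 in P1. P2 replicate 1 held the highest P2 value of any posterior gene here, 10.2 normalized reads, and the log2 fold change was −3.39 ± 0.48 (SE, limma adjusted p = 0.001). *hoxd13a*, the hoxda paralog, ran from 0 to 4.68 in P2 and from 0 to 16.9 in P1, so the populations overlapped, and its log2 fold change of −1.46 ± 0.91 (SE, limma adjusted p = 0.291) missed the threshold.

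Group 9 genes begin the posterior class and are used from the trunk backward and in the paired fins. *hoxb9a* (ENSDARG00000056023) had 0, 0 and 0.586 normalized reads in P2, against 63.8, 21.3, 96.1, 68.4 and 45.2 in P1. Its 2 reads in P2 gave a P1 to P2 ratio of 288 (counting interval 79.6 to 2381) and a log2 fold change of −5.53 ± 0.51 (SE, limma adjusted p = 3.21e-05). *hoxa9b* had 0, 1.38 and 1.46 normalized reads in P2, against 46.2, 28.5, 77.5, 79.5 and 41 in P1, and its log2 fold change was −4.84 ± 0.49 (SE, limma adjusted p = 6.68e-05). In both genes every P1 library was above every P2 library by a wide margin.

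*hoxa9a* had 0, 0.275 and 1.46 normalized reads in P2, against 27.5, 14.3, 16.8, 42.1 and 14.3 in P1. *hoxc9a* had 0, 6.61 and 3.51 normalized reads in P2, against 37.2, 54.9, 24.6, 23.6 and 25.4 in P1, with the highest P2 value in replicate 2. *hoxd9a* had 0, 4.68 and 0 normalized reads in P2, against 6.35, 18.2, 13.1, 24.2 and 2.6 in P1. The first 2 of these did not overlap between populations, while for *hoxd9a* P2 replicate 2 was above P1 replicate 6, and its adjusted p was 0.0358 with all libraries and 0.00781 without P2 replicate 2. The log2 fold changes of these 3 genes were −3.91, −3.31 and −2.66, and without P2 replicate 2 those of *hoxc9a* and *hoxd9a* were −3.93 and −3.49.

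Group 10 genes pattern the posterior trunk (in mice they hold back rib formation). *hoxb10a* had 0, 0.551 and 1.17 normalized reads in P2, against 46.5, 23.3, 44.9, 45.4 and 36.1 in P1, a log2 fold change of −4.71 ± 0.44 (SE, limma adjusted p = 3.87e-05). *hoxa10b* had 0.339, 0.275 and 1.46 normalized reads in P2, against 10.6, 25.4, 33.9, 28.2 and 12.7 in P1. *hoxc10a* had 0, 1.38 and 0.293 normalized reads in P2, against 9.97, 14.6, 9.52, 16.4 and 9.75 in P1. All 3 were below 1.5 normalized reads in every P2 library and above 9 in every P1 library. *hoxd10a* had 0, 0.275 and 0 normalized reads in P2, against 1.81, 13.9, 8.41, 25.5 and 6.5 in P1, so that its single P2 read stood beside P1 values that spread widely.

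Group 11 genes, in mice, pattern the sacral region, the forearm and the lower leg. *hoxa11b* had 0, 1.93 and 0 normalized reads in P2, against 9.37, 17.4, 53.1, 53.4 and 27.3 in P1, a log2 fold change of −4.27 ± 0.63 (SE, limma adjusted p = 0.00124). *hoxa11a* had 0, 0 and 0 normalized reads in P2, against 0.604, 3.15, 9.3, 3.76 and 7.48 in P1. *hoxc11a* had 0, 0 and 0 normalized reads in P2, against 1.21, 9.27, 15.7, 16.9 and 5.2 in P1. *hoxa11a* and *hoxc11a* had no read in P2, at least 5.35-fold lower for *hoxa11a* and at least 10.6-fold lower for *hoxc11a* by the floor of 3 reads. *hoxc11b* had 0, 1.93 and 0.293 normalized reads in P2, against 7.86, 8.34, 17.9, 17.2 and 5.85 in P1. *hoxd11a* had 0, 4.13 and 0 normalized reads in P2, against 2.12, 13.2, 11.1, 27.1 and 6.83 in P1. P2 replicate 2 carried the P2 reads of *hoxd11a*, above P1 replicate 1, and its adjusted p was 0.0392 with all libraries and 0.0104 without that library.

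Group 12 genes are used at the tail end and in the fins. *hoxc12a* had 0, 1.1 and 0 normalized reads in P2, against 2.72, 35, 24.8, 6.98 and 10.7 in P1. *hoxc12b* had 0, 0.551 and 0 normalized reads in P2, against 5.74, 3.89, 15.9, 23.1 and 6.5 in P1. *hoxd12a* had 0, 0 and 0.586 normalized reads in P2, against 2.42, 9.27, 17.5, 26.3 and 6.5 in P1. None overlapped between populations, the log2 fold changes were −3.30, −3.11 and −3.18, and at most 4 reads stood behind each P2 group. Of the called posterior genes, 9 had over 50% of their P2 reads in P2 replicate 2, among them *hoxa11b* and *hoxc12a*. Without that library all 9 were called lower, with log2 fold changes from −4.78 to −3.25. The values were −4.78 for *hoxa11b* (limma adjusted p = 0.000847) and −3.66 for *hoxc12a* (limma adjusted p = 0.00934). Leaving out the library with most of their P2 reads lowers the P2 level of these genes, so this fit is no check of their falls. Without P2 replicate 1 the calls of *hoxc12a* (limma adjusted p = 0.0567), *hoxd9a* and *hoxd11a* were lost. Over the whole posterior class 17 of 23 genes had at most 10 reads in the 3 P2 libraries together, and 20 did not overlap, where 8.82% of all genes tested, and 49.1% of those that passed through P1 only, lay below P1 in every P2 library.

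**Figure D3:**
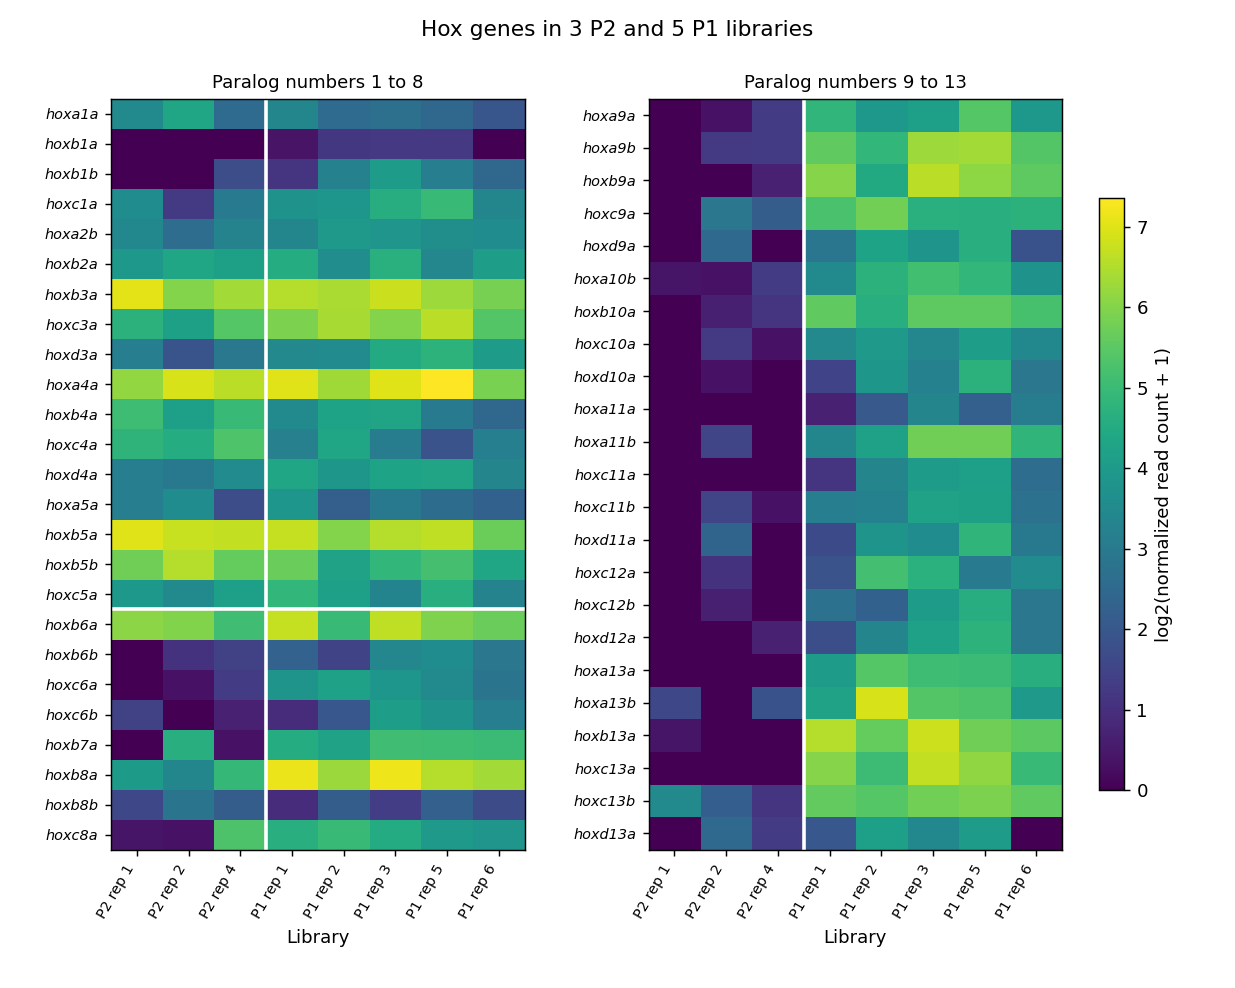
Level of each of the 48 Hox genes as log2(normalized read count + 1) in the 3 P2 libraries (left of the white line) and the 5 P1 libraries, ordered by paralog number with groups 1 to 8 left and 9 to 13 right. P2 columns are dark from group 9 on, with no posterior gene above 10.2 normalized reads, while groups 2 to 5 are lit in both populations.

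In the middle class the genes of hoxba and hoxca, which are used in the trunk, showed mixed results. *hoxb8a* (ENSDARG00000056027), a gene of the spinal cord and trunk mesoderm, was read in every library, with 15.3, 9.36 and 29 normalized reads in P2, against 141, 75.6, 143, 92.6 and 79.3 in P1. It did not overlap between populations, with a log2 fold change of −2.59 ± 0.39 (SE, limma adjusted p = 0.00144). *hoxc6a* had 0, 0.275 and 1.46 normalized reads in P2, against 13, 17.6, 13.7, 10.2 and 6.18 in P1, a log2 fold change of −3.10 ± 0.52 (SE, limma adjusted p = 0.00252). Both were called in each fit that left out 1 library.

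*hoxb7a*, the sole group 7 gene, had 0, 24 and 0.293 normalized reads in P2, against 22.7, 17.8, 33.4, 32.7 and 31.2 in P1. P2 replicate 2 was within the range of P1 and the other P2 libraries were at or near 0, so the P2 mean of 8.08 ± 13.7 (SD, n = 3) stands for no library. Its log2 fold change of −3.13 was called at adjusted p = 0.0296, and at 0.000125 without P2 replicate 2 (−4.61). The call was lost on leaving out P2 replicates 1 or 4 or P1 replicates 3, 5 or 6 (adjusted p up to 0.14), with edgeR (−1.75, adjusted p = 0.306), with DESeq2 (−1.77, adjusted p = 0.409) and with voom (−4.30, adjusted p = 0.051). *hoxc8a* showed the same kind of split in another library, with 0.339, 0.275 and 38.6 normalized reads in P2, against 23.6, 30.8, 22.1, 14.8 and 13.3 in P1, and was not called (adjusted p = 0.101). A single library thus decided the P2 mean of both genes, P2 replicate 2 for *hoxb7a* and P2 replicate 4 for *hoxc8a*.

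*hoxb6b* had 0, 1.1 and 1.76 normalized reads in P2, against 3.93, 1.85, 9.52, 11 and 6.5 in P1. Its populations did not overlap, yet the adjusted p of 0.0522 missed the threshold. The other middle genes not called were *hoxb6a* (log2 fold change −0.28), *hoxc6b* (−2.09) and *hoxb8b* (0.51). *hoxb6a* was at 53.8 ± 18.2 normalized reads in P2 (SD, n = 3) and 68.9 ± 31.9 in P1 (SD, n = 5), within the spread of the replicates, although it lies in the same cluster as *hoxb7a* and *hoxb8a*.

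Anterior genes held most of the Hox reads of P2. The 3 members with the most P2 reads were *hoxb5a*, *hoxa4a* and *hoxb3a*, from paralog groups used in the caudal hindbrain, the posterior pharyngeal arches and the region of the pectoral fin. *hoxb5a* had 127, 106 and 101 normalized reads in P2, against 104, 62.3, 91.6, 99.3 and 51.4 in P1. *hoxa4a* had 70.6, 119 and 95.4 normalized reads in P2, against 126, 78.9, 127, 163 and 57.5 in P1. *hoxb3a* had 133, 62.5 and 80.8 normalized reads in P2, against 91.6, 85.4, 108, 76.5 and 57.2 in P1. The populations overlapped in all 3, with log2 fold changes of 0.49, −0.15 and 0.09. The sign of *hoxb3a* turned under other scalings and on leaving out P2 replicate 1 or P1 replicate 6, and that of *hoxa4a* on leaving out P2 replicate 1 or P1 replicate 5. The identifier of the *hoxa4a* row (ENSDARG00000103862) carries the name HOXA3 in a separate gene name table, and RefSeq models of *hoxa3a* and *hoxa4a* overlap, so which gene these reads belong to is uncertain.

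*hoxc4a* (ENSDARG00000070338) was the one Hox gene that rose in P2, with 26.8, 22.6 and 39.2 normalized reads in P2, against 8.16, 19.3, 7.53, 2.68 and 8.13 in P1. Every P2 library was above every P1 library, as for 11.8% of all genes tested, and the log2 fold change was 1.76 ± 0.52 (SE, limma adjusted p = 0.0412). The call was lost in 6 of 8 fits that left out 1 library, without P2 replicates 1 or 4 or P1 replicates 1, 3, 5 or 6, with adjusted p up to 0.148. *hoxb4a* (log2 fold change 1.22, adjusted p = 0.117) and *hoxb5b* (1.11, adjusted p = 0.0803) were not called.

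The 2 anterior genes that fell were *hoxc3a*, a neighbour of *hoxc4a*, and *hoxb1b*, a gene of early hindbrain patterning. *hoxc3a* had 25.8, 17.1 and 42.2 normalized reads in P2, against 59.2, 83.9, 62.2, 96.9 and 41.3 in P1, a log2 fold change of −1.28 ± 0.38 (SE, limma adjusted p = 0.0418). *hoxb1b* had 0, 0 and 2.34 normalized reads in P2, against 1.21, 8.34, 15.9, 7.78 and 4.55 in P1, a log2 fold change of −2.23 ± 0.69 (SE, limma adjusted p = 0.0484). Each of the 2 had overlapping populations and lost its call in 6 of 8 fits that left out 1 library. For *hoxc3a* these were P2 replicates 1 and 2 and P1 replicates 1, 2, 3 and 5, and for *hoxb1b* P2 replicates 1 and 2 and P1 replicates 2, 3, 5 and 6. *hoxd3a* had 7.8, 2.75 and 6.73 normalized reads in P2, against 9.97, 10.7, 21.5, 26.3 and 15.6 in P1, which did not overlap, and was not called (adjusted p = 0.069).

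The other 9 tested anterior genes were not called and had log2 fold changes from −1.50 (*hoxc1a*) to 1.22 (*hoxb4a*). Among them were *hoxa2b*, the selector gene of the arch that forms the hyoid skeleton, at 7.95 ± 2.41 normalized reads in P2 (SD, n = 3) and 12 ± 2.04 in P1 (SD, n = 5), and its partner *hoxb2a*, at 16.8 ± 2.40 in P2 and 16.8 ± 6.61 in P1. Neither difference passed the test (adjusted p = 0.372 for *hoxa2b* and 0.917 for *hoxb2a*).

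By cluster, the posterior genes of hoxba had the lowest median log2 fold change, −5.53, beside −4.14 in hoxab, −3.91 in hoxaa, −3.30 in hoxca, −3.11 in hoxcb and −2.66 in hoxda. Where P2 is near 0, a fold change on this scale is bounded by the P1 level, so this order partly restates that level. P1 means were 39.3 to 70.0 normalized reads over the posterior hoxba genes and 9.04 to 12.9 over those of hoxda. hoxba and hoxca hold genes of all classes. In hoxba the 4 tested anterior genes had a median of 0.29 with 0 called by limma, edgeR, DESeq2 or voom and 1 at an unadjusted p under 0.05 by each, the 3 middle genes a median of −2.59 with 2 lower, and the 3 posterior genes were all lower. In hoxca the medians were −0.74 over 4 anterior, −2.73 over 2 middle and −3.30 over 5 posterior genes, of which 1, 1 and 5 were lower. In RefSeq (assembly GRCz12tu) 17 members have gene models that overlap another Hox model, among them *hoxc3a* with *hoxc4a*, *hoxc5a*, *hoxc6a*, *hoxc8a* and *hoxc9a*, and *hoxb3a* with *hoxb4a*, *hoxb5a* and *hoxb6a*. The sources used here do not say how shared reads were assigned or whether strand was used, so values of these genes are uncertain to that degree.

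Genes that flank the clusters were compared as neighbours that are not Hox genes, in the gene order of RefSeq (assembly GRCz12tu). Of 24 tested flanking genes 3 were lower and the others were not called, and the median log2 fold change was −0.10. The 3 were *eve1*, the even-skipped homolog beside *hoxb13a* (−2.76, adjusted p = 0.0254), *snx10a*, a sorting nexin gene beside hoxaa (−2.53, adjusted p = 0.00191), and *nfe2l2a*, a stress response regulator beside hoxda (−1.01, adjusted p = 0.0463). Beside this count, 7.05% of all genes tested were lower, and 35.8% of those that passed through P1 only, *eve1* among them. On leaving out 1 library the call of *eve1* was lost without P2 replicates 1 or 4 or P1 replicates 3 or 5 (adjusted p up to 0.0851), and that of *nfe2l2a* without P2 replicate 4 or any P1 replicate (up to 0.199). *evx2*, the even-skipped homolog beside *hoxd13a*, was too low to be tested, at 0 in every P2 library and at 2.42, 1.11, 19.9, 8.59 and 0.65 normalized reads in P1.

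Among P1 libraries the order of the posterior sums differed between clusters. The 5 posterior hoxda genes summed to 15.7, 71.3, 59.8, 119 and 22.4 normalized reads in P1 replicates 1, 2, 3, 5 and 6, and the 3 posterior hoxba genes to 202, 93.4, 252, 167 and 126. Replicate 1 thus held the lowest hoxda sum and the next to highest hoxba sum. Of the 12 posterior genes of the A and D clusters 7 were lowest in replicate 1 and 7 were highest in replicate 5, and of the 11 of the B and C clusters 2 were lowest in replicate 1 and 4 were highest in replicate 5. The difference between these cluster groups was not tested.

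The actinodin genes *and1* and *and2*, which encode structural proteins of the larval fin fold, also varied among P1 libraries. *and2* had 0, 29.7 and 3.22 normalized reads in P2, against 398, 6257, 1031 and 1099 in P1 replicates 1, 2, 3 and 5 and 1333 in P1 replicate 6. *and1* had 3.73, 23.7 and 10.2 in P2, against 161, 4370, 892, 569 and 680 in P1. Both were highest in P1 replicate 2, the library in which *hoxa13b* stood at 121 normalized reads, and lowest in P1 replicate 1, while *hoxa13b* was lowest in P1 replicate 6. Both also fell in P2, with log2 fold changes of −6.11 for *and1* (SE 0.81, adjusted p = 0.000627) and −8.01 for *and2* (SE 0.95, adjusted p = 0.000283). The high values of P1 replicate 2 were not particular to fin fold genes. Summed keratinocyte markers stood at 20415 normalized reads in that library, against 2122 to 3881 in the other P1 libraries.

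**Figure D4:**
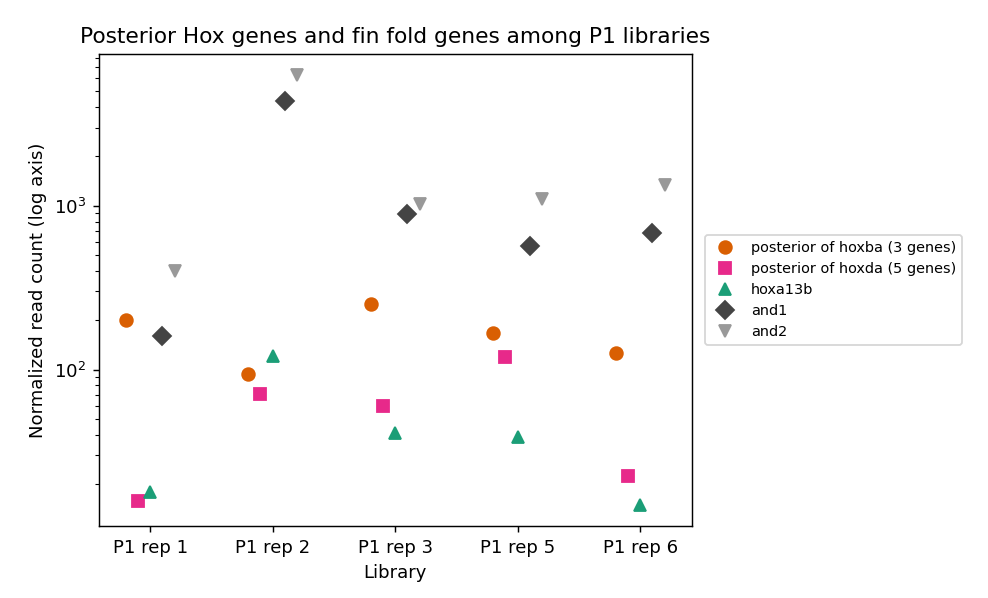
Normalized read counts (log axis) in each P1 library of the summed posterior genes of hoxba and of hoxda, of *hoxa13b* and of the fin fold genes *and1* and *and2*, 1 point per library (replicates have no order). *hoxa13b*, *and1* and *and2* are highest in replicate 2, where the hoxba sum is at its lowest, 93.4.

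Hox proteins bind DNA with Pbx, Meis and Pknox partners, which belong to the TALE class of homeodomain proteins. Of 13 tested rows for these cofactors limma called 0. At an unadjusted p under 0.05 there were 2, *pbx3b* and *pknox1.2*. Of the same 13 rows edgeR and voom called 0 and DESeq2 called 1, *pknox1.2*, with 3, 2 and 3 rows at an unadjusted p under 0.05. *pbx3b* had 46.5, 46.5 and 107 normalized reads in P2, against 146, 73.6, 163, 207 and 126 in P1 (log2 fold change −1.13, adjusted p = 0.0679). *pknox1.2* had 35.6, 24.8 and 60.9 in P2, against 20.8, 19.5, 13.7, 6.98 and 12 in P1 (1.40, adjusted p = 0.052), without overlap. The 3 cofactor rows with the most reads were *pbx4* (log2 fold change 0.02), *meis1b* (0.13) and *pbx2* (−0.19), with adjusted p from 0.698 to 0.979. The cofactor rows summed to 1366 to 1940 normalized reads in P2 libraries and 1262 to 1974 in P1 libraries, which overlapped.

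Among 17 tested regulators of Hox genes and chromatin factors 2 fell and 15 were not called. Both that fell had passed the filter through P1 libraries only, and 35.8% of all genes that passed in this way were called lower. The share was 7.05% over all genes tested. *gdf11*, a TGF-beta family ligand that in mice sets the trunk to tail transition, had 0, 2.20 and 0 normalized reads in P2, against 17.5, 12.2, 21.5, 18.3 and 13 in P1 (log2 fold change −3.54, SE 0.52, adjusted p = 0.00117, and −4.10 with adjusted p = 0.000324 without P2 replicate 2). *hnf1ba*, a regulator of the hindbrain and of the pronephros, had 0.339, 0.275 and 0 in P2, against 9.37, 15.4, 19.7, 17.4 and 17.9 in P1 (−3.79, SE 0.46, adjusted p = 0.000308). *cdx4*, which activates posterior Hox genes in zebrafish embryos, was too low to be tested, at 0 in P2 and at most 2.42 in P1. The 3 regulators with the most reads, *kdm6ba*, *mafba* and *kdm6bb*, had log2 fold changes of 0.90, 0.98 and 0.67 and were not called, and neither were the 8 Polycomb genes of the list. Of these, *ezh1*, *ezh2*, *eed*, *suz12a*, *suz12b* and *rnf2* had values from 0.18 to 0.80, and *bmi1a* and *bmi1b* had −0.84 and −0.33. Without P2 replicate 2, *kdm6ba* (1.14, limma adjusted p = 0.0276), *mafba* (1.22, 0.0411) and *kdm6bb* (0.99, 0.0495) were called higher. So were *kdm6a* (1.23, 0.0283) and *kmt2a* (1.48, 0.0272), while the Polycomb genes were still not called. These higher calls depended on the library left out. Over the fits that left out 1 library, limma adjusted p reached 0.253 for *mafba*, 0.27 for *kdm6ba* and 0.334 for *kdm6a*. It reached 0.459 for *kdm6bb* and 0.527 for *kmt2a*.

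Of 10 tested genes of the trunk, fin and tail 4 fell (*gdf11*, *eve1*, *and1* and *and2*) and 6 were not called. Of 13 tested genes of head territories without Hox expression 1 fell and 12 were not called. The 1 was *emx3*, a forebrain gene, with 0, 1.1 and 2.34 normalized reads in P2, against 3.32, 60.4, 12.4, 21.5 and 17.9 in P1 (log2 fold change −3.17, SE 0.74, adjusted p = 0.016, and 0.0838 without P2 replicate 1). *alx4a* (−0.24) and *gsc* (0.84), genes of skull and jaw mesenchyme, and the brain gene *emx2* (0.10) held the most reads of this list and were not called. Without P2 replicate 2 the head gene *otx2b* was also called lower (log2 fold change −2.56, limma adjusted p = 0.0179, and 0.0873 with all libraries). The calls of the trunk, fin and tail genes were the same without that library. Through P1 libraries only, 3 of the 10 trunk, fin and tail genes passed the filter, *gdf11* and *eve1* among them. The same held for 2 of the 13 head genes, *emx3* among them. Genes that passed in this way were called lower in 35.8% of cases, against 7.05% of all genes tested. The difference between the 2 lists was not tested.

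Markers of other cells also differed between the populations, and their part in the Hox values was not tested. Of 7 pronephros and corpuscle of Stannius markers 5 fell, and the sum of the 7 was 15.8 to 35.0 normalized reads in P2 and 4075 to 11477 in P1. The P1 sum was mostly the corpuscle of Stannius gene *stc1l*, at 3695 to 11367 normalized reads in P1 libraries. The markers not called were *slc12a3* (log2 fold change −2.44) and *cubn* (0.29). Of 7 fin fold markers, which include *hoxa13b* and *hoxd13a*, 5 fell, with a sum of 34.3 to 86.4 in P2 and 674 to 11232 in P1 without these Hox genes. Of 9 tested neuronal markers 4 fell, with a sum of 61.8, 328 and 189 in P2 replicates 1, 2 and 4 and of 246 to 1286 in P1. Without P2 replicate 2 the neuronal genes *snap25b* and *stmn2a* were also called lower (limma adjusted p = 0.0312 and 0.0179). In the pronephros list 2 markers, and in the fin fold list 1 (*hoxa13b*), passed the filter through P1 only. Beside these counts, 7.05% of all genes tested were lower, and 35.8% of those that passed through P1 only.

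Of 11 muscle markers 0 were called by limma, with 7 at an unadjusted p under 0.05, and 0 were called by edgeR, DESeq2 or voom, with 0, 0 and 5 at an unadjusted p under 0.05. Their sum was 29685 normalized reads in P2 replicate 2 and 177 to 183 in the other P2 libraries, and it ran from 2205 in P1 replicate 3 to 56436 in P1 replicate 6. Without P2 replicate 2, limma called every muscle marker lower except *ckma* (adjusted p = 0.402). The adjusted p of those called ran from 0.00121 (*pvalb2*) to 0.0282 (*acta1b*), so the limma count of 0 depended on that library.

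How many Hox genes were called depended on the libraries and the tool. In the fits that left out 1 library, between 19 and 27 Hox genes were lower, with 19 without P2 replicate 1, 25 without P2 replicate 2 and 17 to 22 in the posterior class, and 17 posterior genes were called in every such fit. Of the posterior calls, *hoxc11a* and *hoxc12a* were lost without P2 replicate 1, *hoxd9a* without P2 replicates 1 or 4 or P1 replicates 2, 3 or 5, *hoxd11a* without these or P1 replicate 6, and *hoxa11a* without P2 replicates 1 or 4 or P1 replicates 3, 5 or 6. On the recovered reads edgeR called 22 lower and DESeq2 29, against 4.97% and 9.89% of all genes, while voom called 13, against 2.81%. With edgeR the lower calls lost were *hoxb1b*, *hoxc3a*, *hoxb7a*, *hoxd9a* and *hoxd11a* (adjusted p from 0.0591 to 0.306), and *hoxc4a* was no longer called higher (adjusted p = 0.0629).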

How the data were processed

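RNA of sorted P2 (3 libraries) and P1 (5 libraries) cells was amplified by the SMART-Seq method and sequenced. The authors mapped reads to GRCz11 with the nf-core rnaseq pipeline at default parameters. The deposited values are a normalized signal, read counts that the authors divided by 1 size factor per library over 32520 gene rows. Multiplication by the size factor gave whole reads for 100% of values (within 0.01 of a read). The values of 10 columns that match no sample were not used, nor were the authors' fold changes and p-values, and 89.8% of identifiers (29201) were in a table of gene names. Depth ranged from 7510312 to 13034333 reads.

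The test was limma 3.58.1 in R 4.3.3, with a variance trend, on log2(normalized read count + 1), over genes with at least 10 reads in at least 3 libraries, two-sided, called at an adjusted p under 0.05. Alternatives changed the pseudocount (0.5 and 5), the filter, the scaling, the tool (voom, edgeR 4.0.16 and DESeq2 1.42.0 on recovered reads) and the libraries. The scripts were checked on simulated data. Another scaling moved the median log2 fold change of all genes from 0.00 to −0.12 (median of ratios and trimmed mean of M values), so changes of that size depend on it. Replicates were not copies, since chi-square per degree of freedom between them was at least 43.7.

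Values per library are given for Hox genes that were called, that did not overlap between populations, or that had the most reads, and for *hoxb9a*. From the other lists (cofactors, regulators, head, trunk, flanking and cell type markers) called genes and those with the most reads are named, and of cell type markers the counts and sums. The members and lists were chosen with earlier results of these data known. Sequences of these genes were not used here.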

Additional observations from a re-analysis of the deposited data

Results flagged for a closer look

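*hoxa13b* in P1 had 1 library far from the others. P1 replicate 2 stood at 121 normalized reads, the nearest other P1 library at 40.7 and the lowest at 15.0. It was the 1 such gene among 33 Hox genes examined for an outlying P1 library, where chance sets apart about 1 in 20 groups. Every P1 library, with or without replicate 2, was above the P2 libraries, which held 2.04, 0 and 2.63 normalized reads.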

How the results depend on the processing

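The 27 Hox genes lower in P2 became 13 with voom, and between 19 and 27 on leaving out 1 library. For the 22 posterior genes the counts were 11 with voom and 17 to 22, and for the 3 middle genes 2 to 4. The 2 anterior genes became 1 with a pseudocount of 5, with a mean of at least 10 reads or with totals without mitochondrial genes, and 0 with no filter, total reads, voom, edgeR, no variance trend or without both libraries numbered 2 (an alternative chosen after seeing the data), and 0 to 2 on leaving out 1 library. The 1 gene higher in P2 became 0 with no filter, median of ratios, trimmed mean of M values, totals without mitochondrial genes or edgeR, 2 without both libraries numbered 2, and 0 to 1 on leaving out 1 library. The 0 cofactors called became 1 with median of ratios, trimmed mean of M values (*pbx3b* in both) or DESeq2, 2 without both libraries numbered 2, and 0 to 2 on leaving out 1 library. The posterior median of −3.31 became −3.94 with a pseudocount of 0.5, −2.17 with 5, −5.33 with voom, −5.50 with edgeR and −5.58 with DESeq2 (−3.59 to −3.13 on leaving out 1 library). The median over all tested Hox genes, −2.58, became −1.31 with a pseudocount of 5, −4.03 with voom and −3.11 with DESeq2 (−2.69 to −2.29), and the middle median, −2.23, became −1.14 with a pseudocount of 5 and −3.06 with voom (−2.39 to −1.88). The anterior median, −0.06, lay between −0.23 and 0.07. The ratio of P2 to P1 RPM on leaving out 1 library was 0.438 to 0.518 for all Hox genes, 0.974 to 1.16 for anterior, 0.359 to 0.462 for middle and 0.0252 to 0.038 for posterior genes. Over reads without mitochondrial genes it was 0.424, 0.956, 0.366 and 0.0289. The mean number detected, 27.0 in P2, was 32.3 at 1 read and 20 at 10 reads (25.5 to 30.0 on leaving out 1 library), and the 47.2 in P1 was 44.2 at 10 reads (47.0 to 47.5). The log2 fold change of *hoxb3a*, 0.09, was −0.042 with median of ratios, −0.044 with trimmed mean of M values and −0.015 with totals without mitochondrial genes, and between −0.20 and 0.33 on leaving out 1 library, below 0 if that was P2 replicate 1 or P1 replicate 6. For *hoxa4a*, at −0.15, that range was −0.36 to 0.042, above 0 if the library was P2 replicate 1 or P1 replicate 5. Of the 33 genes with values per library 31 kept their direction under all 23 alternatives. The cause of these changes was not tested, except that other pseudocounts rescale low values by construction.

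The populations share only the replicate numbers 1 and 2. The sample titles of same-numbered libraries also share a prefix, and the labels do not say whether it marks a shared sort. Same-numbered libraries did not deviate together (correlations 0.001 and −0.127), and the numbers were not taken as pairs. These 2 correlations cannot settle whether a sort was shared. Over those 4 libraries a replicate block gave 13 genes lower, 10 of them posterior, with 0 anterior and 0 higher, and the same libraries without the block gave 10, 8, 0 and 0. The middle median was −1.72 in both. At most 10 reads in all stood behind 17 of the 23 posterior genes in P2, which limits the precision of their fold changes.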

Other observations

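Markers of further cell types are given here as values beside the Hox results, and their part in those results was not tested. Of 8 keratinocyte markers 4 fell in P2, with a summed level of 343 to 2319 normalized reads in P2 libraries and 2122 to 20415 in P1 libraries. The 2319 was in P2 replicate 2, against 416 and 343 in P2 replicates 1 and 4, and the 20415 was in P1 replicate 2. Without P2 replicate 2, limma called all 8 lower, with adjusted p from 0.000294 (*epcam*) to 0.042 (*krt4*). Of 8 endothelial markers 4 fell, with 130 to 299 in P2 and 344 to 632 in P1, and of 6 tested macrophage and neutrophil markers 2 fell, with 24.1 to 67.9 in P2 and 76.4 to 286 in P1. The neutrophil gene *lyz*, which was not tested, was at 0 in every P2 library and at 0 to 107 in P1 libraries. Of the tested genes, 2 gut markers, 1 notochord marker and 1 macrophage or neutrophil marker passed the low-value filter through P1 alone. So did 2 pronephros and corpuscle of Stannius markers and 1 fin fold marker. Of all genes that passed in this way 35.8% were called lower, against 7.05% of all genes tested. Of 5 tested erythroid markers 1 fell (7.32 to 84.8 in P2, 14.3 to 2087 in P1), and of 6 gut markers 3 fell (4.68 to 36.1 in P2, 77.9 to 485 in P1). Of 6 cartilage markers 1 fell and 1 rose, with 4742 to 13644 in P2 and 9096 to 16212 in P1, and of 4 tested notochord markers 1 fell and 1 rose, with 448 to 513 in P2 and 182 to 468 in P1, so these summed levels overlapped between the populations. The notochord sum was mostly *cav1*, the marker that rose, at 438, 499 and 484 normalized reads in P2 replicates 1, 2 and 4. Without P2 replicate 2 the call of *cav1* was lost (limma adjusted p = 0.0532), as was that of the endothelial marker *pecam1* (0.0828). For *cav1* the limma adjusted p reached 0.108 over the fits that left out 1 library. The notochord marker that fell was *shha*.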
